A study of Mus musculus with 2 samples.

Results

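Krt4, Krt13, Krt7, Krt8, Krt18 and Krt19 are 6 keratin genes best known from moist mucosal linings and from simple, single-layered epithelia, and here they were followed through dividing cells of the mouse corneal epithelium. They were chosen by name, as 6 of the 31053 genes in the count table, and all 6 were detected. The mice carried the CycB1-GFP reporter, which couples a green fluorescent protein to Cyclin B1, a regulator of entry into mitosis. The epithelium was peeled after Dispase digestion, dissociated with trypsin, and live GFP-positive cells were sorted and put through droplet 3' single-cell RNA-seq. There was 1 group with 2 replicates and no untreated or GFP-negative arm. No label used here states the age or sex of the mice, the number of animals, or whether corneas were pooled.

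Keratins are the intermediate filament proteins of epithelial cells, and a filament forms only when a type I keratin pairs with a type II keratin. Krt8 (type II) with Krt18 (type I) is the classic pair of simple epithelia, where Krt7 (type II) and Krt19 (type I) often join them. Krt4 (type II) with Krt13 (type I) is the pair of non-cornified stratified linings such as the conjunctiva and oesophagus. The corneal surface itself is marked by Krt12, while Krt15 marks basal cells toward the limbus, the rim that holds corneal stem cells, and Gpha2, a glycoprotein hormone subunit, is a known limbal marker.

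The 6 genes lie in the keratin clusters of 2 chromosomes (build GRCm38, GENCODE annotation). The type I genes Krt13 (chr11:100117327-100121566, minus strand) and Krt19 (chr11:100140810-100148665, minus strand) are 19243 bases apart. The type II genes Krt7 (chr15:101411043-101430313, plus strand), Krt4 (chr15:101918535-101924735, minus strand) and Krt8 (chr15:101996698-102004482, minus strand) lie on chromosome 15. Krt18 (chr15:102028180-102032027, plus strand) is of type I yet lies among them, 23697 bases from Krt8.

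The promoters of Krt8 and Krt18 are shown because these neighbours were found together in single cells more often than independence gives, and that of Krt13 because it kept a level of its own in Krt12-rich cells. Sequences are from RefSeq on GRCm38.p6, whose table held 4 of the 6 genes (Krt7, Krt8, Krt13, Krt18). Each run reads 5′ to 3′ along the gene's strand and covers 280 bases, the last 30 of them after the annotated start. Capitals mark matches, on either strand, to TATAAA (the TATA box core), AACCNGTT (Grainyhead-like factors), TGANTCA (AP-1) or CCACCC (Krüppel-like and Sp factors, GGGTGG on the other strand). The Krt8 region is chr15:102004313-102004592 (minus strand), the Krt18 region chr15:102027966-102028245 (plus strand) and the Krt13 region chr11:100121537-100121816 (minus strand).
Krt8: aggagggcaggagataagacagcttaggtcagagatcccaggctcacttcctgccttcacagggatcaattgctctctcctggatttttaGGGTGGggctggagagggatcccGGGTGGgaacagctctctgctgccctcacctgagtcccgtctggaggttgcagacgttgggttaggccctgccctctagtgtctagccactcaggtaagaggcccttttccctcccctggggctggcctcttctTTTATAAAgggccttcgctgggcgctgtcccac
Krt18: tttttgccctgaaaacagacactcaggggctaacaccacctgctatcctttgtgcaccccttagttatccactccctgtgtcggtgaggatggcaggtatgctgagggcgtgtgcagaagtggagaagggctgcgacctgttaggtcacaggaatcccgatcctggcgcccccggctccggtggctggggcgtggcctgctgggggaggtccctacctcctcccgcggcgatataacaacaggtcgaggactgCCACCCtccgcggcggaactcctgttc
Krt13: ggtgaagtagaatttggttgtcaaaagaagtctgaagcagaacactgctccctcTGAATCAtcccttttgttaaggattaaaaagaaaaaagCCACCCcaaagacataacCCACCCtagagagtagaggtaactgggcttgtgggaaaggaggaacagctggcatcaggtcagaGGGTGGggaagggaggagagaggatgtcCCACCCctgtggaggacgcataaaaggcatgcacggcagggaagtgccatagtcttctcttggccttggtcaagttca
Krt8 held 2 CCACCC matches and 2 overlapping TATAAA matches, 1 on each strand, within the 8 capital letters across its annotated start. Krt18 held 1 CCACCC match, and this Krt13 window held 4 CCACCC matches and 1 TGANTCA match. Among all 32851 promoter windows of 300 bases, 13.6% held TATAAA, 2.09% AACCNGTT, 7.81% TGANTCA and 31.5% CCACCC. The Krt7 window held none of these motifs. A match is a description of the letters only.

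Of 6752 cell barcodes, 6188 had at least 500 genes and under 20% mitochondrial UMIs and were kept, 3187 in library 1 and 3001 in library 2. A UMI (unique molecular identifier) stands for 1 captured RNA molecule, and kept cells had a median of 5571 UMIs in library 1 and 5886 in library 2. The libraries are told apart by the number at the end of each barcode, which the labels do not tie to a replicate number, and they shared 5 barcode sequences. Cells were divided by the share of Krt12 among their Krt12 and Krt15 UMIs, where they had at least 5 of these. A share under 0.4 was found in 663 cells of library 1 (20.8%) and 959 of library 2 (32.0%), a share of 0.4 to 0.8 in 161 and 164, and a share above 0.8 in 2304 and 1821. Corneal identity was checked on 8 corneal epithelial genes, among them Krt12, which also set the classes. Together they held 33447 CPM (UMIs per 1000000 UMIs) in library 1 and 46613 in library 2 above 0.8, against 2446 and 2077 under 0.4. Ckb was at or near 0 throughout. A list of 6 limbal genes, among them Gpha2 and Krt15, which also set the classes, held 17383 and 20341 CPM under 0.4 and 7984 and 4465 above 0.8. Each list thus contains a gene that set the classes and is no independent check. Gpha2, which did not set them, held 687 and 1023 CPM under 0.4 and 39.7 and 66.8 above 0.8.

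All 6 keratins were higher in the Krt15-rich cells, with a share under 0.4, than in the Krt12-rich cells, with a share above 0.8, in both libraries. Krt7 showed the widest gap, 58.8-fold in library 1 and 73.4-fold in library 2, followed by Krt4 at 53.8-fold and 68.9-fold, and Krt18 the narrowest, at 2.22-fold and 3.15-fold. At least 1 UMI of any of the 6 was present in 80.5% and 88.1% of cells under 0.4 (libraries 1 and 2), and in 22.1% and 25.9% of cells above 0.8. Krt13 and Krt18 were the members that kept most of their RNA in Krt12-rich cells.

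For the type II members, Krt4, the mucosal partner of Krt13, held 358 CPM in library 1 and 567 in library 2 under 0.4, and 6.64 and 8.23 above 0.8. Krt7, of glandular and ductal linings, held 204 and 470 CPM under 0.4, and 3.47 and 6.41 above 0.8. Krt8, the partner of Krt18, held 110 and 281 CPM under 0.4, and 6.93 and 25.3 above 0.8. All 3 were low above 0.8 in both libraries.

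For the type I members, Krt13 held 313 and 529 CPM under 0.4, and 79.2 and 63.2 above 0.8. Krt19, a small keratin found in simple and basal stratified epithelia, held 235 and 489 CPM under 0.4, and 19.0 and 11.9 above 0.8. Krt18 held 43.8 and 51.9 CPM under 0.4, and 19.7 and 16.5 above 0.8, the smallest contrast of the 6. The counting intervals (95%, exact Poisson, counting error only) of these classes did not overlap for any member. How many of all genes had separate intervals was not counted.

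Library 2 was higher than library 1 under 0.4 for 5 members, by 1.59-fold for Krt4 (95% interval 1.48 to 1.69), 1.69-fold for Krt13, 2.08-fold for Krt19, 2.31-fold for Krt7 and 2.55-fold for Krt8 (2.28 to 2.86). The Krt18 ratio of 1.18 had an interval that included equality (0.968 to 1.45). Above 0.8 the libraries did not keep this order: Krt8 was 3.65-fold higher in library 2, while Krt19 stood at 0.625-fold and Krt13 at 0.798-fold of library 1. Whether this is a difference between animals, preparations or sorts cannot be told apart.

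**Figure D1:**
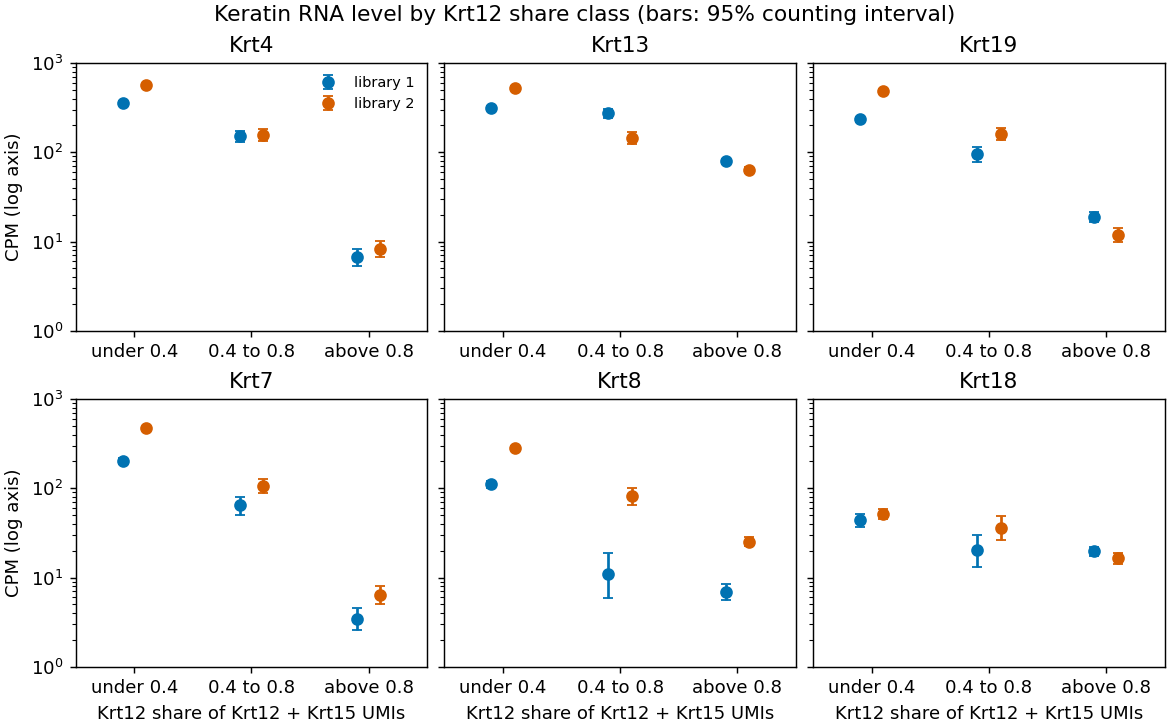
CPM of each keratin (log axis) in the 3 classes of Krt12 share (x axis), with 1 point per library and bars for the 95% exact Poisson interval. Krt4 and Krt7 span the widest range, from 358 and 567 CPM for Krt4 under 0.4 to 6.64 and 8.23 above 0.8, and Krt18 the narrowest.

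The classes were compared with UMI counts summed per library and class, using edgeR's quasi-likelihood test with the library as a block and Benjamini-Hochberg adjustment over all 11138 genes tested. Between the outer classes, 5 of the 6 members were called higher under 0.4, where 16.9% of all genes tested were called higher and 15.6% lower. Log2 differences were 6.03 for Krt7 (SE 0.13), 5.91 for Krt4 (SE 0.14), 4.41 for Krt19 (SE 0.62, edgeR adjusted p = 0.0454), 3.66 for Krt8 (SE 0.23, edgeR adjusted p = 7.4e-05) and 1.37 for Krt18 (SE 0.16, edgeR adjusted p = 1.3e-06). Krt13 was not called, at a log2 difference of 2.55 (SE 0.56, edgeR adjusted p = 0.0967), being 3.96-fold higher in library 1 and 8.37-fold in library 2. These fits have 6 sums and 2 residual degrees of freedom, so the spread is largely borrowed from other genes. The p-values measure only how far the class differences varied between 2 libraries, which may be technical.

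Calls for Krt13, Krt19 and Krt8 between the outer classes turned on the settings. Krt13 was called by DESeq2 (adjusted p = 0.00014), without the library block (0.0162) and in cells thinned to 2000 UMIs (0.00723). Krt19 was not called without the filter on low counts (0.0879) or without the 5% of cells with most UMIs (0.0652), and Krt8 not without the block (0.141), all adjusted p.

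By CPM the intermediate class lay between the outer classes for all 6 members, though not always clearly apart from cells above 0.8. From 0.4 to 0.8, Krt4 held 151 and 156 CPM, Krt7 64.3 and 107, and Krt19 95.6 and 160. Krt8 held 11.003 CPM in library 1 and 81.5 in library 2, so the libraries stood far apart there. Krt13 went the other way between libraries, with 274 CPM in library 1 and 144 in library 2. Krt18 held 20.3 and 36.3 CPM. In library 1 the ratio to cells above 0.8 was 1.03 for Krt18 (0.649 to 1.57) and 1.59 for Krt8 (0.816 to 2.84). Both intervals included equality. Against cells above 0.8, Krt4 (log2 4.35, SE 0.16) and Krt7 (log2 4.10, SE 0.17) were called higher by edgeR, 2 of 6 where 4.14% of genes were called higher and 2.92% lower. Cells under 0.4 exceeded the intermediate class in Krt4 (log2 1.56, SE 0.13), Krt7 (log2 1.93, SE 0.12) and Krt8 (log2 2.19, SE 0.28), 3 of 6 where 2.6% of genes were called higher and 2.95% lower.

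Across 10 equal steps of Krt12 share, Krt4 and Krt7 were far lower in the last step than in the one before. Krt4 held 48.0 and 49.9 CPM in cells with a share of 0.8 to 0.9, and 3.85 and 5.29 in cells above 0.9. Krt7 held 19.4 and 44.8 CPM, then 2.38 and 3.62, over the same steps. Krt18 showed no such gap in library 2, at 17.9 and then 16.3 CPM, and held 48.0 and then 17.8 CPM in library 1. Below these steps Krt4 did not decline evenly, with 34.6 and 87.5 CPM in neighbouring steps of library 1. Krt13 in library 1 held 589 CPM from 0.5 to 0.6 and 434.5 from 0.8 to 0.9, against 207 to 332 in the steps under 0.4. The steps from 0.1 to 0.8 hold 32 to 111 cells each in library 1 and 28 to 70 in library 2, so single cells weigh on them.

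**Figure D2:**
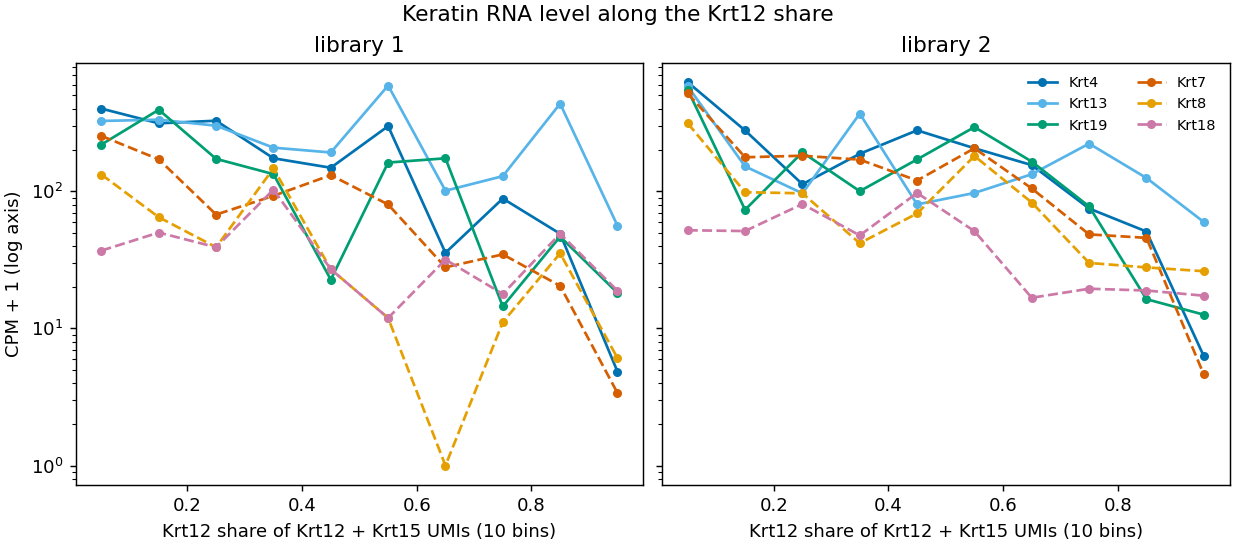
CPM plus 1 (log axis) of the 6 keratins in 10 bins of Krt12 share (x axis, bin centres), one panel per library, each point a sum over the cells of the bin. Krt4 and Krt7 are lowest in the last bin, at 3.85 and 2.38 CPM in library 1, while Krt13 and Krt18 lie higher there, at 55.2 and 17.8 CPM.

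The members' proportions to each other also differed between the classes. UMIs of Krt7 per UMI of Krt4 were 0.569 under 0.4 and 0.522 above 0.8 in library 1, and 0.830 and 0.779 in library 2, with overlapping intervals. UMIs of Krt13 per UMI of Krt4 went from 0.876 to 11.9 in library 1 and from 0.933 to 7.68 in library 2. UMIs of Krt18 per UMI of Krt8 went from 0.397 to 2.84 and from 0.184 to 0.651. Relative to their type II partners, the type I members Krt13 and Krt18 were thus more abundant above 0.8. Among UMIs of 12 type II and 12 type I keratins, the members made up 10.1% and 17.9% of type II UMIs under 0.4, and 0.236% and 0.578% above 0.8. Of type I UMIs they made up 3.11% and 5.09% under 0.4, and 0.532% and 0.409% above 0.8.

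RNA of the members in Krt12-rich cells was concentrated in few cells. The 1% of cells with most UMIs of a member held 72.8% and 52.6% of the Krt4 UMIs above 0.8, 69.1% and 73.3% of those of Krt13, and 66.2% and 78.1% of those of Krt19. Krt18 was more evenly spread, at 35.5% and 22.6%. Krt13 had at least 5 UMIs in 34 and 30 Krt12-rich cells, with up to 195 UMIs in 1 cell. Of these cells (median 9268 and 7825.5 UMIs), 7 and 9 had a Krt4 UMI, which is 20.6% and 30.0%, and 10 in each library had a Krt19 UMI. Of the cells under 0.4 with at least 5 Krt13 UMIs (median 7513 and 6661.5 UMIs), 49 of 53 and 131 of 138 had a Krt4 UMI, which is 92.5% and 94.9%. Among all cells of the class, a Krt4 UMI was present in 2.13% and 3.35% above 0.8, and in 46.2% and 51.0% under 0.4. The shares in cells with at least 5 Krt13 UMIs thus lay above those of all cells in both classes. All cells were shallower, with a median of 5784.5 and 6375 UMIs above 0.8, and 5002 and 5096 under 0.4. The difference between the classes was not tested over samples.

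To compare detection at equal depth, each cell was thinned at random to 2000 UMIs, which left out 21 and 77 shallower cells under 0.4, and 265 and 199 above 0.8. Krt4 was then detected in 28.7% and 35.0% of cells under 0.4, Krt7 in 27.6% and 49.1%, Krt8 in 13.6% and 26.9%, Krt13 in 22.0% and 26.5%, Krt19 in 17.9% and 24.5%, and Krt18 in 7.17% and 8.16%. Without thinning the shares were 46.2% and 51.0% for Krt4 and 14.8% and 16.1% for Krt18. Above 0.8 no member exceeded 5.00% in thinned cells. The cells least likely to express keratins were 9 immune cells (median 2512 UMIs), picked in part for under 5 UMIs of Krt12 and Krt15 together. They held no UMI of 5 members and 1 UMI of Krt13, but 0 of 9 cells allows a share of up to 33.3%, so free RNA is poorly limited by them.

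Members of both types occurred in the same cell in 25.2% of thinned cells under 0.4 in library 1 (exact binomial interval 21.9 to 28.8%) and 35.7% in library 2 (32.5 to 39.0%). A further 26.3% and 34.2% had only type II members detected, and 9.97% and 6.92% only type I members. Above 0.8, 0.294% and 0.432% had both, 2.06% and 5.30% type II only, and 8.63% and 6.84% type I only. The order of type II only and type I only was thus the other way. Their intervals were separate in library 1 (1.49 to 2.77% and 7.45 to 9.94%). In library 2 they overlapped (4.26 to 6.51% and 5.66 to 8.18%). Lack of a partner among the 6 does not mean lack of one, since other keratins such as Krt5, Krt14 and Krt15 were abundant in these cells.

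Some pairs of members were found together in cells under 0.4 more often than independence would give. For each of the 9 pairs of a type II with a type I member, the number of thinned cells with both was divided by the number that independence would give. Of the 9 pairs, 6 were above 1 in both libraries with intervals that excluded 1, and none was below. Of the 6 pairs of members of the same type, 3 were likewise above 1 in both, and none was below. These 3 were Krt7 with Krt8, Krt13 with Krt19, and Krt18 with Krt19. The share among pairs of other genes was not counted. The ratio compares cells within a library and carries no test between samples.

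Krt8 with Krt18 had the highest ratio in library 1, 2.89 (18 cells, 1.71 to 4.56), and 1.65 in library 2 (32 cells, 1.13 to 2.33). A Krt18 UMI was found in 20.7% of Krt8-positive and 5.05% of Krt8-negative cells in library 1, and in 13.5% and 6.20% in library 2. Krt8 with Krt19 stood at 2.05 and 1.98. Krt4 with Krt13, the mucosal pair, stood at 1.93 (78 cells, 1.53 to 2.41) and 1.78 (146 cells, 1.504 to 2.09), with Krt13 in 42.4% and 47.2% of Krt4-positive cells against 13.8% and 15.4% of Krt4-negative cells.

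Krt19 joined both pairs, at 1.79 and 1.59 with Krt4 and at 1.77 and 1.39 with Krt7. Krt7 with Krt13 stood at 1.36 and 1.29. Crossing the classic pairs gave ratios whose intervals included 1: Krt4 with Krt18 at 0.986 and 0.951, and Krt8 with Krt13 at 0.785 (0.439 to 1.29) and 1.26 (0.995 to 1.57). Krt7 with Krt18 reached 1.42 and 1.27, with intervals that included 1. Among members of 1 type, Krt13 with Krt19 stood highest at 2.22 and 1.94, and Krt7 with Krt8 at 1.63 and 1.39.

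**Figure D3:**
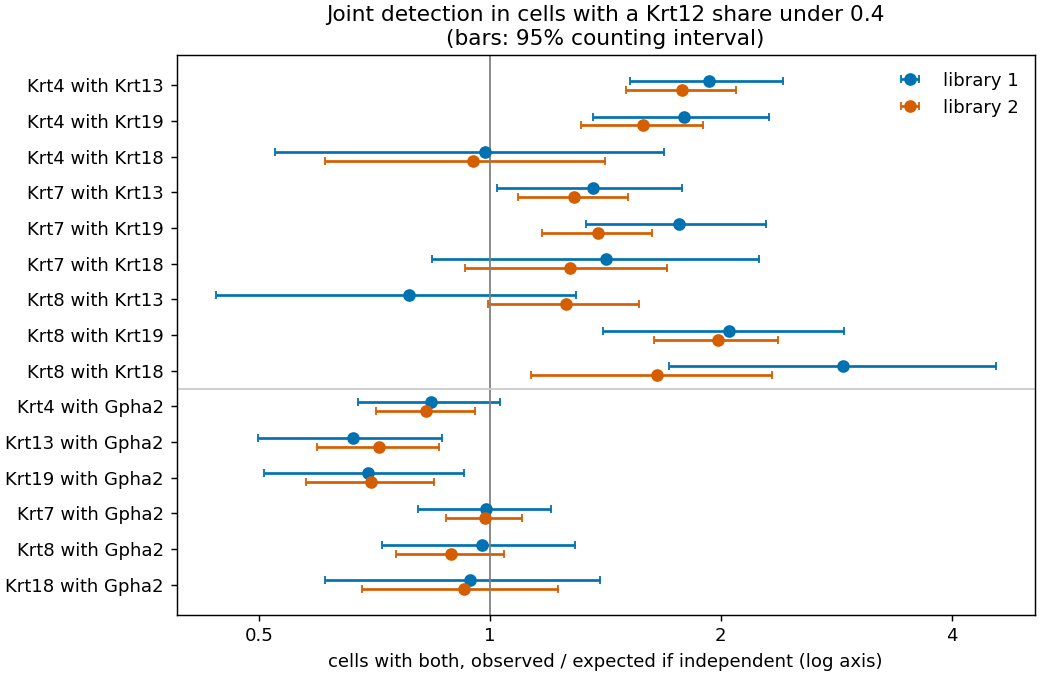
Cells holding both genes, as observed over expected under independence (log axis), for the 9 type II with type I pairs and for each member with Gpha2, in cells under 0.4 thinned to 2000 UMIs. Points are libraries, bars 95% exact Poisson intervals of the observed count, and the line marks 1. Krt8 with Krt18 (2.89 and 1.65) and Krt4 with Krt13 (1.93 and 1.78) lie to the right, Krt4 with Krt18 at 1, and Krt13 and Krt19 with Gpha2 to the left.

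In Krt12-rich cells few cells held a pair. In library 2, 66 thinned cells had Krt8 and 49 had Krt18, and none had both, where independence would give 1.99 cells. Without thinning, 30 of 174 Krt8-positive cells there had a Krt18 UMI (17.2%), against 8.84% of all Krt12-rich cells. In library 1 these were 6 of 54 (11.1%), against 7.77%. The Krt8-positive cells were deeper, with a median of 6361.5 and 7404.5 UMIs (libraries 1 and 2) against 5784.5 and 6375 in all Krt12-rich cells. Krt4 with Krt13 occurred in 3 cells of library 1, where independence would give 0.850 (ratio 3.53, 0.727 to 10.3), and in 6 cells of library 2, where it would give 0.738 (ratio 8.13, 2.98 to 17.7). Without thinning the ratio for this pair was 3.60 (17 cells, 2.10 to 5.77) and 3.29 (12 cells, 1.70 to 5.74).

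The same question was put to summed counts, comparing cells with and without a UMI of 1 type II member, matched in number, class and depth within each library. These fits have 4 sums and 1 residual degree of freedom. Cells with Krt8 held 107 CPM of Krt18 in library 1 and 63.4 in library 2, against 21.6 and 18.9 in cells without, after normalisation (log2 1.92, SE 0.16). They held 369 and 519 CPM of Krt19 against 103 and 72.002 (log2 2.497, SE 0.29), a difference that was not called (edgeR adjusted p = 0.111) but was called in 10 of 12 alternatives. Krt13 was called higher by a small margin, 322 and 385 CPM against 202 and 295 (log2 0.48, SE 0.08). Of the type I members 2 of 3, Krt18 and Krt13, were thus called higher, where 1.36% of 10115 genes were called higher and 0.722% lower.

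Cells with Krt7 were called higher by edgeR in all 3 type I members, where 2.65% of 9881 genes were called higher and 1.19% lower. Krt19 held 305 and 427 CPM against 68.0 and 95.8 (log2 2.16, SE 0.09). The other two differed by log2 1.11 for Krt13 (SE 0.07) and 1.08 for Krt18 (SE 0.18). The type II member Krt8 went with Krt7 as well (log2 1.64, SE 0.10).

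Cells with Krt4 held 505 and 559 CPM of Krt13 against 79.4 and 107 in cells without (log2 2.51, SE 0.09), and 214 and 503 CPM of Krt19 against 60.1 and 107 (log2 2.09, SE 0.10). These were 2 of 3 type I members, where 2.70% of 10063 genes were called higher. Krt18 was the exception, with 29.4 and 35.3 CPM in cells with Krt4 and 44.2 and 51.4 in cells without (log2 -0.56, SE 0.15, edgeR adjusted p = 0.0457), called lower where 0.994% of genes were. That call was made in only 4 of 12 alternatives. Krt8 was not called by Krt4 (log2 0.22, SE 0.15, edgeR adjusted p = 0.558). Krt7 held 181 and 418 CPM in cells with Krt4 against 109 and 240, called higher in 11 of 12 alternatives. Split the other way, cells with Krt8 held 259 and 410 CPM of Krt4 against 198 and 237, called higher in 10 of 12 alternatives. Cells with Krt7 held 427 and 458 CPM of Krt4 against 167 and 216, called higher in 11 of 12.

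Without the library as a block, edgeR called Krt13 by Krt4 (adjusted p = 0.00802) and no other member in these 3 comparisons, all with directions as above. Over 4 other draws of matched cells, Krt19 by Krt4, all 3 type I members by Krt7, and Krt18 by Krt8 were called in all 4. Krt13 by Krt4, and Krt13 and Krt19 by Krt8, were called in 3 of the 4.

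Within the Krt15-rich class Krt4, Krt13 and Krt19 were lower the more Gpha2 UMIs a cell had, in both libraries. Krt7 and Krt8 followed this order in library 2 and not in library 1, and Krt18 in neither. From cells with 0 Gpha2 UMIs, through 1 to 2 and 3 to 5, to those with at least 6, Krt13 held 684, 350, 167 and 65.4 CPM in library 1, and 1584, 582, 410 and 241 in library 2. Krt19 held 474, 302, 103 and 64.2 CPM, and 1403, 625, 323 and 233. Krt4 held 633, 400, 273 and 133 CPM, and 1522, 702, 447 and 270. Each of the 3 stepped down at every bin in both libraries.

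Krt7 held 200, 213, 236 and 165 CPM in library 1, and 595, 521, 473 and 405 in library 2. Krt8 held 103, 167, 91.8 and 72.1 CPM, and 476, 343, 238 and 215. Krt18 held 26.0, 83.6, 37.4 and 22.5 CPM, and 60.3, 56.9, 42.1 and 52.6. The bins held 158 to 179 cells in library 1 and 154 to 366 in library 2. Krt15, which set the class, moved too, from 8979 to 4972 CPM and from 15697 to 7869 between the outer bins, and its part in the result was not tested.

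**Figure D4:**
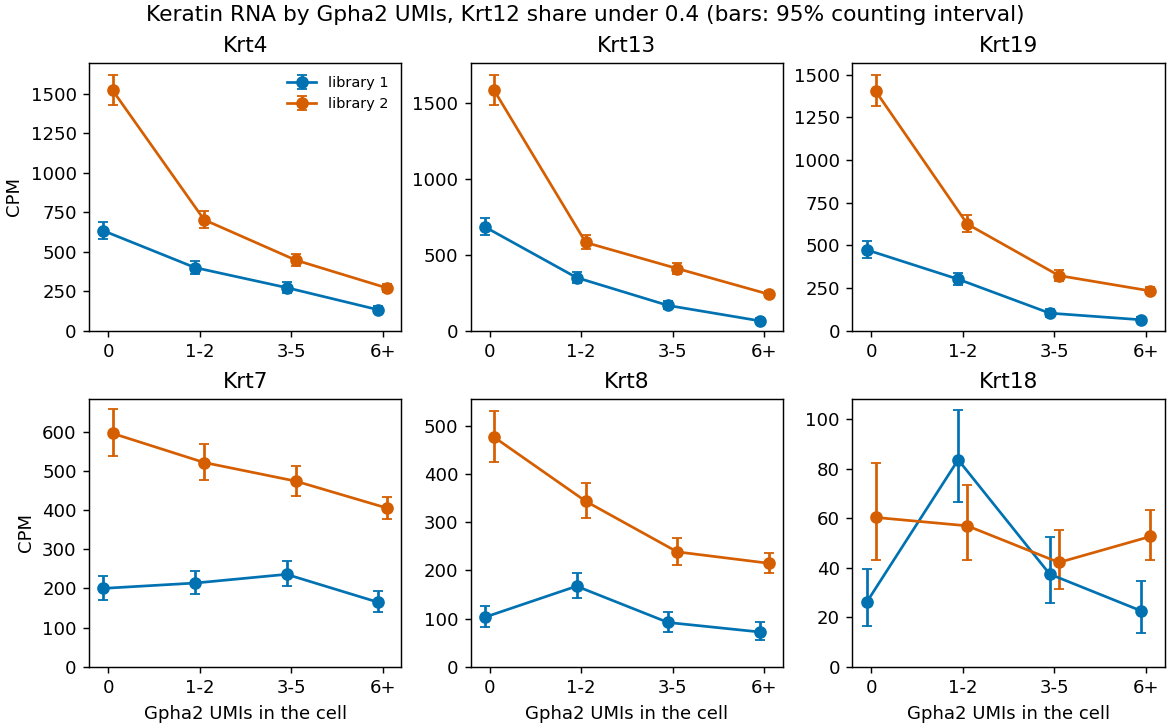
CPM of each keratin (linear axes starting at 0, scaled per panel) by the number of Gpha2 UMIs in the cell, in cells with a Krt12 share under 0.4. Points are libraries and bars 95% exact Poisson intervals. Krt4, Krt13 and Krt19 step down at each bin in both libraries, Krt13 from 684 to 65.4 CPM in library 1, while Krt7, Krt8 and Krt18 do not do so in both.

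Equal numbers of cells with and without a Gpha2 UMI, 158 each in library 1 and 154 each in library 2, were then compared at matched depth. Normalised Krt13 was 267 and 474 CPM in cells with Gpha2 against 703 and 1612 in cells without (log2 -1.60, SE 0.10, edgeR adjusted p = 3.3e-11). Krt4 was 315 and 442 against 651 and 1549 (log2 -1.46, SE 0.12), and Krt19 220 and 449 against 488 and 1428 (log2 -1.45, SE 0.11). These 3 of 6 members were called lower, where 3.48% of 7410 genes were called lower and 2.15% higher. Krt15 was lower as well in cells with Gpha2 (log2 -0.58, SE 0.07).

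Krt7 (log2 -0.16, SE 0.12, edgeR adjusted p = 0.578), Krt8 (log2 -0.37, SE 0.15, edgeR adjusted p = 0.208) and Krt18 (log2 0.36, SE 0.29, edgeR adjusted p = 0.612) were not called. Krt8 is the uncertain one, since it was called lower in 8 of 12 alternatives, including all 4 other draws of matched cells. Krt4 and Krt19 were called in 2 of those 4 draws and Krt13 in 3. Their log2 differences ran from -2.38 to -2.08 for Krt13, -1.99 to -1.53 for Krt4 and -2.05 to -1.47 for Krt19. For each gene the difference in the first draw, given above, was smaller and lay outside this range. Without the library block none of the 6 was called, with adjusted p of 0.439 for Krt4, 0.491 for Krt13 and 0.790 for Krt19. A test of one member's Gpha2 difference against another's was not made.

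Joint detection with Gpha2 was counted as well. Among thinned cells under 0.4, Gpha2 was found with Krt13 at 0.665 and 0.718 of the number under independence and with Krt19 at 0.694 and 0.701, both with intervals below 1 in both libraries. Krt4 stood at 0.839 (0.674 to 1.03) and 0.827 (0.712 to 0.956). Krt7 stood at 0.990 and 0.985, Krt8 at 0.977 and 0.891, and Krt18 at 0.943 and 0.926, with intervals that included 1. Read from the other side, cells with at least 5 Krt13 UMIs held 115 CPM of Gpha2 in library 1 and 414 in library 2, against 866 and 1378 in cells without Krt13. Cells with at least 5 Krt7 UMIs also held less Gpha2, 353 and 772 CPM against 741 and 1213 in cells without Krt7. Over 0, 1, 2 to 4 and at least 5 UMIs of Krt8, Gpha2 stepped down in both libraries, through 719, 631, 530 and 443 CPM and through 1203, 955, 824 and 616. Over the same steps of Krt18 it went through 718, 567, 418 and 268 CPM and through 1040, 1012, 913 and 499, with only 2 and 7 cells in the last step. From cells without Krt4 to those with at least 5 Krt4 UMIs, Gpha2 went from 801 and 1353 to 275 and 430 CPM. For Krt19 it went from 868 and 1243 to 165 and 441 CPM. Read from this side, Gpha2 was thus lowest in the highest step of all 6 members. For Krt18 in library 1 that step held only 4 Gpha2 UMIs (interval 72.9 to 685 CPM), which covers the step before.

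The sort was on a cell-cycle reporter, so the members were also compared by proliferation RNA, the UMIs of 10 mitotic genes among 2000 UMIs of a cell. All 6 were lower in the cells with at least 5 such UMIs (2344 and 2200 cells) than in the few with none (91 and 120 cells). Krt13 held 94.1 and 119 normalised CPM against 1566 and 1331 (log2 -3.77, SE 0.16), and Krt19 51.8 and 109 against 468 and 945 (log2 -3.14, SE 0.15). Krt4 held 80.6 and 127 against 234 and 882 (log2 -2.25, SE 0.16). Krt7 differed by log2 -1.46 (SE 0.16), Krt8 by -1.43 (SE 0.18) and Krt18 by -1.33 (SE 0.25). The members' differences were not tested against each other. All 6 were called lower by edgeR, where 8.25% of 11600 genes were called lower and 7.52% higher.

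The 2 groups differed in their classes, since cells under 0.4 made up 14.3% and 45.8% of those without proliferation RNA and 23.3% and 33.5% of those with it. Within cells under 0.4, Krt13 (log2 -2.27, SE 0.19), Krt19 (log2 -2.61, SE 0.19), Krt4 (log2 -1.82, SE 0.20), Krt7 (log2 -1.09, SE 0.23) and Krt8 (log2 -1.07, SE 0.27) were still called lower by edgeR, and Krt18 was not (log2 0.21, SE 0.51, edgeR adjusted p = 0.941). Library 1 had only 13 cells without proliferation RNA there, and in these Krt8 held 87.9 CPM (6 UMIs) against 116 with proliferation RNA. The lower Krt8 was thus seen in library 2 alone, at 740 CPM without and 256 with it.

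Within cells above 0.8, Krt13 went from 1457 and 853 CPM without proliferation RNA (65 and 59 cells) to 36.8 and 25.3 CPM with it (log2 -5.31, SE 0.19). Krt19 (log2 -4.34, SE 0.25), Krt4 (log2 -2.45, SE 0.51) and Krt18 (log2 -1.46, SE 0.43, edgeR adjusted p = 0.0237) were also called lower there. The libraries did not share the Krt18 direction, with 77.8 CPM without proliferation RNA and 18.2 with it in library 1, and 9.08 (3 UMIs) and 14.9 in library 2. Krt7 (log2 1.70, SE 1.44, edgeR adjusted p = 0.559) and Krt8 (log2 -0.37, SE 0.49, edgeR adjusted p = 0.754) were not called, and Krt7 had 0 and 1 UMIs in the cells without proliferation RNA. Over all classes without the library block, edgeR called only Krt13 and Krt19.

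**Figure D5:**
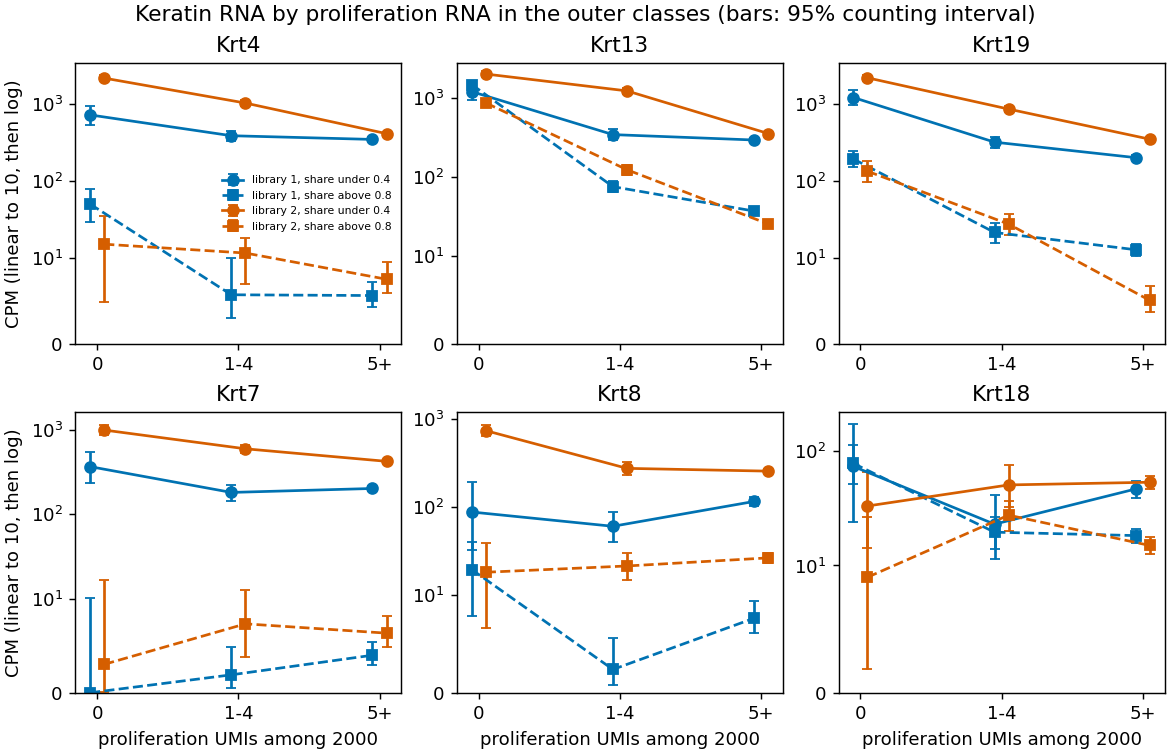
CPM of each keratin (linear to 10, then log) by proliferation UMIs among 2000, for cells under 0.4 (circles) and above 0.8 (squares) of each library, with 95% exact Poisson intervals. Krt13 and Krt19 are highest without proliferation RNA in both classes, Krt13 at 1457 and 853 CPM above 0.8, while Krt8 and Krt18 show no common order.

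The genes whose RNA varied most like each member were ranked by Pearson correlation over single cells, by the lower of both libraries' r, among 5798 genes of at least 20 CPM (3187 and 3001 cells, which share depth and library). Cells of all classes were pooled, and Krt15, itself among the ranked genes, helped to set the classes. Krt4 was followed by Krt15 (r 0.54 and 0.57), Krt13 (0.49 and 0.61), Krt7, Cmah and Serpinb3a. Krt13 was followed by Krt4, Hopx, Ceacam1, Krt6b, a keratin of activated and suprabasal epithelium, and Muc4, a membrane mucin. Krt19 was followed by Krt7 (0.41 and 0.52), Krt13, Krt4, Ceacam1 and Hopx. Krt19 itself was among the first 5 of Krt8 and Krt18, not of Krt4 or Krt13.

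Krt7 was followed by Wfdc18 (0.54 and 0.69), Krt15, Alox12e, a lipoxygenase, Crip2 and Barx2. Krt8 was followed by Krt7 (0.42 and 0.49), Wfdc18, Cldn3, a tight junction protein, Alox12e and Krt19. Krt18 was followed by Krt8 (0.26 and 0.27), Krt7, Krt19, Krt17 and Cldn3, all weak. Within cells above 0.8, a ranking added after seeing the data, Krt13 varied most like Muc4 (0.43 and 0.60), Krt6b (0.42 and 0.58), Hopx, Pdzk1ip1 and Asprv1, a protease of differentiating epidermis. Its correlation with Krt4 there was 0.18 and 0.11. The ranking within cells under 0.4 is given for Krt4 and Krt7 after its values were seen. There Krt4 was followed by Krt13 (0.52 and 0.62), Gsto1, Gsta4, Calml3 and Krt6b. Krt7 was followed there by Alox12e (0.37 and 0.48), Krt19, Alox15, Gsto1 and Mal. The correlation of Krt4 with Gpha2 was 0.25 and 0.21 over all kept cells, and -0.22 and -0.38 under 0.4.

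Other genes of the keratin network were read from fixed lists. Of 10 other keratins tested between the outer classes, 4 were called higher and 1 lower under 0.4, with a median log2 difference of 0.70 against -0.01 over all genes. The 4 higher ones were under 20 CPM and are not named. Krt5, the basal type II keratin, was the lower one (4452 and 4408 CPM under 0.4, 5340 and 5916 above 0.8, log2 -0.37, SE 0.06). Of 15 desmosome and plakin genes, which anchor keratins at junctions, 4 were higher and 6 lower (median log2 0.06). Of those with at least 20 CPM, epiplakin, Eppk1, stood at log2 1.60 (SE 0.11) and Dsg2 at 0.73 (SE 0.15), while Pkp3 and Dsc3 were each at -0.59. Pkp2, a plakophilin named here after its values were seen, had the larger difference of log2 2.55 (SE 0.37) at a low level, 7.48 and 10.7 CPM under 0.4 against 1.73 and 1.30 above 0.8. Of 12 epithelial transcription factors 7 were higher and 3 lower (median log2 0.56), among them Barx2 at log2 4.07 (SE 0.60, edgeR adjusted p = 0.0488), Sox9 at 1.21 (SE 0.10), Klf5 at 1.11 (SE 0.08) and Klf4 at -2.03 (SE 0.27).

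In cells with Gpha2, 7 of 10 other keratins tested were called lower (median log2 -0.54), among them the activation keratins Krt6b (log2 -2.59, SE 0.12), Krt16 (log2 -1.64, SE 0.15) and Krt6a (log2 -1.46, SE 0.08). Of 14 desmosome and plakin genes 7 were lower and 1 higher (median log2 -0.45), among them Dsc2 (log2 -1.25, SE 0.13), Evpl (log2 -1.22, SE 0.16) and Ppl (log2 -1.02, SE 0.13). Of 11 transcription factors 3 were lower, among them Elf3 (log2 -0.88, SE 0.15) and Klf4 (log2 -0.51, SE 0.14). Of the mucin and goblet genes 2 of 3 tested were lower (median log2 -2.17), among them Muc4 (log2 -2.69, SE 0.24). The median over all genes was 0.02.

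Cells with Krt4 had all 4 mucin and goblet genes tested higher (median log2 2.01), among them Muc4 (log2 2.32, SE 0.18) and Agr2 (log2 0.53, SE 0.14). They had 7 of 15 desmosome and plakin genes higher (median log2 0.29), among them Evpl (log2 0.85, SE 0.10) and Ppl (log2 0.72, SE 0.09). Cells with Krt7 had 3 of 15 higher (median log2 0.14), among them Eppk1 (log2 0.62, SE 0.11). Whether the Krt4 and Krt7 comparisons differ was not tested. In proliferating cells 9 of 13 other keratins fell (median log2 -1.64), among them Krt6b (log2 -4.79, SE 0.18), and 9 of 15 desmosome and plakin genes fell (median log2 -0.65), among them Ppl (log2 -1.77, SE 0.14). Muc4 fell by 5.08 on the log2 scale (SE 0.17) there.

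Markers of other cells that could carry these keratins were counted. Of 7 goblet cell genes, Muc5ac, Muc5b, Spdef, Tff1, Tff3 and Foxa3 were at 0 in all classes. The seventh, Agr2, held 57.4 and 78.9 CPM under 0.4 and 3.68 and 6.15 above 0.8 (log2 3.78, SE 0.16), and Muc4 28.5 and 71.1 against 13.1 and 40.2 (log2 0.91, SE 0.13). Of 12 mucin and goblet genes 4 were tested between the outer classes, and 3 of these were called higher. Of 6 Merkel cell genes, Krt20, Atoh1, Isl1 and Chga were at 0 under 0.4, and the list held 3.60 and 6.95 CPM there and 14.6 and 18.7 above 0.8. Stromal, endothelial, melanocyte and Schwann cell lists held at most 7.53 CPM in any class. The immune list held 2.22 and 48.5 CPM under 0.4 and 0.433 and 2.51 above 0.8, and its part in the result was not tested. The conjunctival list, at 935 and 1657 CPM under 0.4 and 118 and 123 above 0.8, consists of Krt4, Krt13, Krt19 and Muc4 and is no independent check. Doublets were not removed. Without the 5% of cells with most UMIs, Krt4, Krt7, Krt8 and Krt18 were still called higher under 0.4, and Krt19 no longer was. That cut left 650 of 663 and 940 of 959 cells under 0.4, so it hardly changed this class. The part of doublets in the result was not tested.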

How the data were processed

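Single-cell RNA of GFP-positive corneal epithelial cells was counted in 2 libraries of 1 group. The deposited matrix holds raw UMI counts per gene and barcode, made by the authors with Cell Ranger 3.1.0 on GRCm38 (mm10), per the submitters' processing notes and the file header. Seurat 5.0.0 is also named in those notes. The deposited values are whole numbers. The annotation, and whether depth was equalised when libraries were combined, are not stated in the labels used here. Krt8 and Krt18 have near-identical copies elsewhere in the genome, and reads lost to them would not be counted, which was not tested.

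Here, cells with at least 500 genes and under 20% mitochondrial UMIs were kept. Doublets were not called. The members, lists, classes and named-gene rule were chosen with earlier results of these data known. The rule names all 6 members, the 5 genes most like each, and up to 4 called genes of at least 20 CPM per list. Counts were summed per library and group and tested with edgeR 4.0.16 (TMM, expression filter, robust quasi-likelihood, library block, adjusted p under 0.05), with DESeq2 1.42.0 as an alternative. Sums of 1 library come from 1 sample. Cells with and without a UMI were drawn in equal numbers within 10 bins of total UMIs, and 4 other draws and the proliferation test under 0.4 were added after seeing the data. Shares carry exact binomial and CPM exact Poisson 95% intervals, which cover counting error only. The fits were tested on simulated data. Other tools were R 4.3.3, Python 3.11.15, numpy 2.4.6, scipy 1.17.1, pandas 2.3.3 and matplotlib 3.10.9.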

Additional observations from a re-analysis of the deposited data

Results flagged for a closer look

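Members were also found in kept cells that entered no comparison between classes because they held under 5 UMIs of Krt12 and Krt15 together. In 107 such cells that were not immune cells there were 63 UMIs of Krt8, 61 of Krt7, 33 of Krt18, 20 of Krt19 and 10 of Krt4, and 1 of Krt13. These 5 values lie above the 3 UMIs taken as the floor of a count of 0. The 9 immune cells held none of these 5 genes, but they held only 23921 UMIs in all. They were also picked for under 5 UMIs of Krt12 and Krt15, so they poorly limit free RNA. One cell of library 1, with 10443 UMIs, held 40 of the Krt8 UMIs, 23 of Krt18, 21 of Krt7 and 8 of Krt19, with none of Krt4, Krt13 or Gpha2. It held 32 UMIs of Krt5, 67 of Krt14 and 28 of Epcam, and none of Krt20, Muc5ac or Agr2. Without it there were 23 UMIs of Krt8, 40 of Krt7, 10 of Krt18, 12 of Krt19 and 7 of Krt4.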

How the results depend on the processing

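All 6 members had more CPM under 0.4 than above 0.8 in both libraries with the stricter mitochondrial limit of 10% and with at least 1000 genes. Pairs above independence in both libraries numbered 5 of 9 at 4000 UMIs and 6 without thinning. Only 2 libraries exist, so tests lean on spread borrowed from other genes, and leaving 1 out gives values without a test.

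Counts of members called moved as follows. From 0.4 to 0.8 against above 0.8, DESeq2 called 4 of 6 higher and the fit with no replicate block 1. Under 0.4 against 0.4 to 0.8 the fit without the block called 1. For Gpha2, members called lower were 0 without the block, 5 under 10% mitochondrial UMIs, 5 at 3 or more Gpha2 UMIs, and 1 in 1 other draw of matched cells. By Krt4, 1 type I member was called higher without the block, at 1000 genes, without the 5% of cells with most UMIs, and in 1 other draw. By Krt4, 0 were called lower by DESeq2, without the block, at 1000 genes, without the top 5%, under 0.4 only, at 2 or more Krt4 UMIs, and in 2 other draws. By Krt7, 0 were called higher without the block, and by Krt8, 0 without it and 1 by DESeq2, which gave Krt18 no adjusted p. At an unadjusted p under 0.05 the edgeR fit without the block held 2 members lower by Gpha2, 1 type I member lower by Krt4, and 3 higher by Krt7 and by Krt8. DESeq2 called 3 lower by Gpha2 and 2 higher by Krt7. By proliferation, 2 were called lower without the block. The block is the library, whose number in the barcodes is the only pairing, and the causes were not tested.

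Directions reversed in these cases, as log2 differences, where a replicate is a library as numbered in the barcodes. By Gpha2, the values without replicate 1 or 2 ranged from -0.37 to 0.17 for Krt7, from -0.66 to 0.22 for Krt8 and from -0.37 to 1.10 for Krt18. Krt18 stood at -0.20 under 10% mitochondrial UMIs, -0.33 without the top 5% and -0.21 at 3 or more Gpha2 UMIs. Krt8 by Krt4 ranged from -0.34 to 0.48 without replicate 1 or 2. By proliferation, Krt7 stood at 1.70 above 0.8 only and Krt18 at 0.21 under 0.4 only.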
